A study of Mus musculus with 26 samples.

Results

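The 8 genes described here belong to the fasting response of the liver and were followed through the livers of 26 mice: the hormones Fgf21 and Angptl4, the metabolic switches Pdk4 and Txnip, the transcription factor gene Creb3l3, and the coactivator genes Ppargc1a, Ppargc1b and Lpin1. Probes were taken by symbol from an Illumina MouseRef-8 array of 25697 probes and kept where the signal was detected (detection p under 0.01) on at least 4 arrays, as 11001 probes were. Of the 10 probes for these genes 8 passed, 1 for each gene. The 2 probes dropped both belong to Lpin1 and were detected on 0 arrays.

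The study asked how leptin given under the skin and leptin given into the brain change gene expression in the liver of leptin-deficient mice. The 6 B6 mice, lean C57BL6 controls for which the sources used here give neither sex nor age, served as the lean baseline. The other 20 mice were female ob/ob mice on a C57BL6 background, which lack functional leptin, and were 15 weeks old when grouped. They received 12 days of infusion from an osmotic pump in groups of 4: subcutaneous vehicle (VEH-SQ), subcutaneous leptin at 10 µg per day (LEP-SQ), intracerebroventricular vehicle (VEH-ICV), intracerebroventricular leptin at 1.5 µg per day (LEP-ICV), and LEP-ICV*, mice assigned that same ventricular leptin that did not lose weight. LEP-ICV and LEP-ICV* were therefore divided by their response, which LEP-SQ was not. In at least some of the LEP-ICV* mice the placement of the cannula was not established. Each mouse has 1 array, and the sources used here do not say whether they were fed or fasted when the liver was taken. Doses and brain access differ between the routes together, so no dose-matched comparison of routes exists here.

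During a fast the liver turns from storing fuel to releasing it. The fatty acid receptor PPARα switches on fatty acid oxidation and ketone production, and with it Fgf21, which encodes an endocrine growth factor that acts through an FGF receptor and the co-receptor β-Klotho. Amino acid shortage and other stress also raise Fgf21 through the factor ATF4. Angptl4 encodes a secreted inhibitor of lipoprotein lipase, Pdk4 a kinase that shuts down pyruvate dehydrogenase and so spares glucose, and Txnip a thioredoxin-binding α-arrestin that restrains glucose uptake. Creb3l3 encodes CREB-H, a membrane-bound factor of the hepatocyte that is cut free on demand and drives apolipoprotein genes and Fgf21. Ppargc1a and Ppargc1b encode PGC-1α and PGC-1β, coactivators of mitochondrial, oxidative and, for PGC-1α, gluconeogenic genes, and Lpin1 encodes lipin 1, a phosphatidate phosphatase that also acts as a PGC-1α partner in the nucleus.

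RefSeq promoters (GRCm38.p6, 250 bases before to 50 after the start of transcription) were searched for 6 of the 8 genes, with 2 entries for Creb3l3. No entry was found for Angptl4, and Ppargc1b is not reported here. The windows of the hormone gene and the kinase gene that were higher under ventricular leptin, Fgf21 (chr7:45615441-45615740, minus strand) and Pdk4 (chr6:5496229-5496528, minus strand), and that of Txnip (chr3:96557707-96558006, plus strand), are shown 5′ to 3′ on the gene's strand. Capitals mark matches, on either strand, to the motifs searched.
Fgf21: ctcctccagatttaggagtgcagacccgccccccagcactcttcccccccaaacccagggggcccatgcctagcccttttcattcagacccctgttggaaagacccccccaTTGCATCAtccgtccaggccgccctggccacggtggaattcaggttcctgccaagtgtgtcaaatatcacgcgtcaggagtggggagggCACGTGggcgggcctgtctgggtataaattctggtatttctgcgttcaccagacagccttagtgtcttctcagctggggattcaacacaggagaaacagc
Pdk4: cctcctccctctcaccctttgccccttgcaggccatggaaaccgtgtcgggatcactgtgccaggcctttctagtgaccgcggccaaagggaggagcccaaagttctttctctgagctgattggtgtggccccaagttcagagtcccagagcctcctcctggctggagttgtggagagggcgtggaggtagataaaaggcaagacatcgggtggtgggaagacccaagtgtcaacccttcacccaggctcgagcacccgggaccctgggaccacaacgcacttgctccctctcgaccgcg
Txnip: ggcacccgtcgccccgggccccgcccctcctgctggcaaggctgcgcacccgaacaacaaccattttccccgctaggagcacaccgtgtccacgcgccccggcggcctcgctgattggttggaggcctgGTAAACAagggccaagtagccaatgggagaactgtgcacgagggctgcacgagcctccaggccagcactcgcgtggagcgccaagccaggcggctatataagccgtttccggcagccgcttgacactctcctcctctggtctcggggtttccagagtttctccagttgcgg
In Fgf21 the capitals mark TTGCATCA, the reverse complement of the amino acid response element core TGATGNAA, whose first base lies at -139 from the start site, and the palindromic E-box CACGTG, at -50. Txnip carried the forkhead letters GTAAACA at -121. The cAMP response element TGACGTCA and the nuclear receptor element known as direct repeat 1 were in 0 of the 7 windows, and the Pdk4 window matched none of the 5 motifs. Of all 32851 promoters of this length 3.97% held TGATGNAA, 7.15% CACGTG, 3.65% GTAAACA, 1.79% TGACGTCA and 0.0396% the direct repeat. These matches describe letters in a short window only.

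Levels are log2 intensities after background correction and quantile normalization with an offset of 16, so a difference of 1 unit is a 2-fold change, and they can be compared between mice but not between probes. The arrays fell into 2 classes by their background signal: 12 arrays with a background of 107.1 to 126.2 and 6786 to 9705 detected probes, and 14 with 161.4 to 200.8 and 8092 to 11117. All 8 vehicle-treated mice lay in the low class and all 6 B6 and 4 LEP-SQ mice in the high class. LEP-ICV and LEP-ICV* held 2 mice of each class. Array background and group therefore cannot be told apart in LEP-SQ against VEH-SQ or in ob/ob against B6, where a model with the class as a block leans on the class difference inside the LEP-ICV and LEP-ICV* groups alone. LEP-SQ and B6 can be set against each other within the high class. All 6 hepatocyte markers were tested. Their summed intensity was 132300 to 158300 in B6, below the 163000 to 173700 in VEH-SQ and 169700 to 176300 in VEH-ICV. It was 156100 to 170700 in LEP-SQ, 113300 to 187900 in LEP-ICV and 145900 to 185300 in LEP-ICV*. Markers of adipocytes (3 of 4 with a probe) and skeletal muscle passed the detection filter in 0 cases, and 1 of 5 cholangiocyte markers did. In whole liver, fewer cells of a type and less RNA per cell cannot be told apart.

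**Figure D1:**
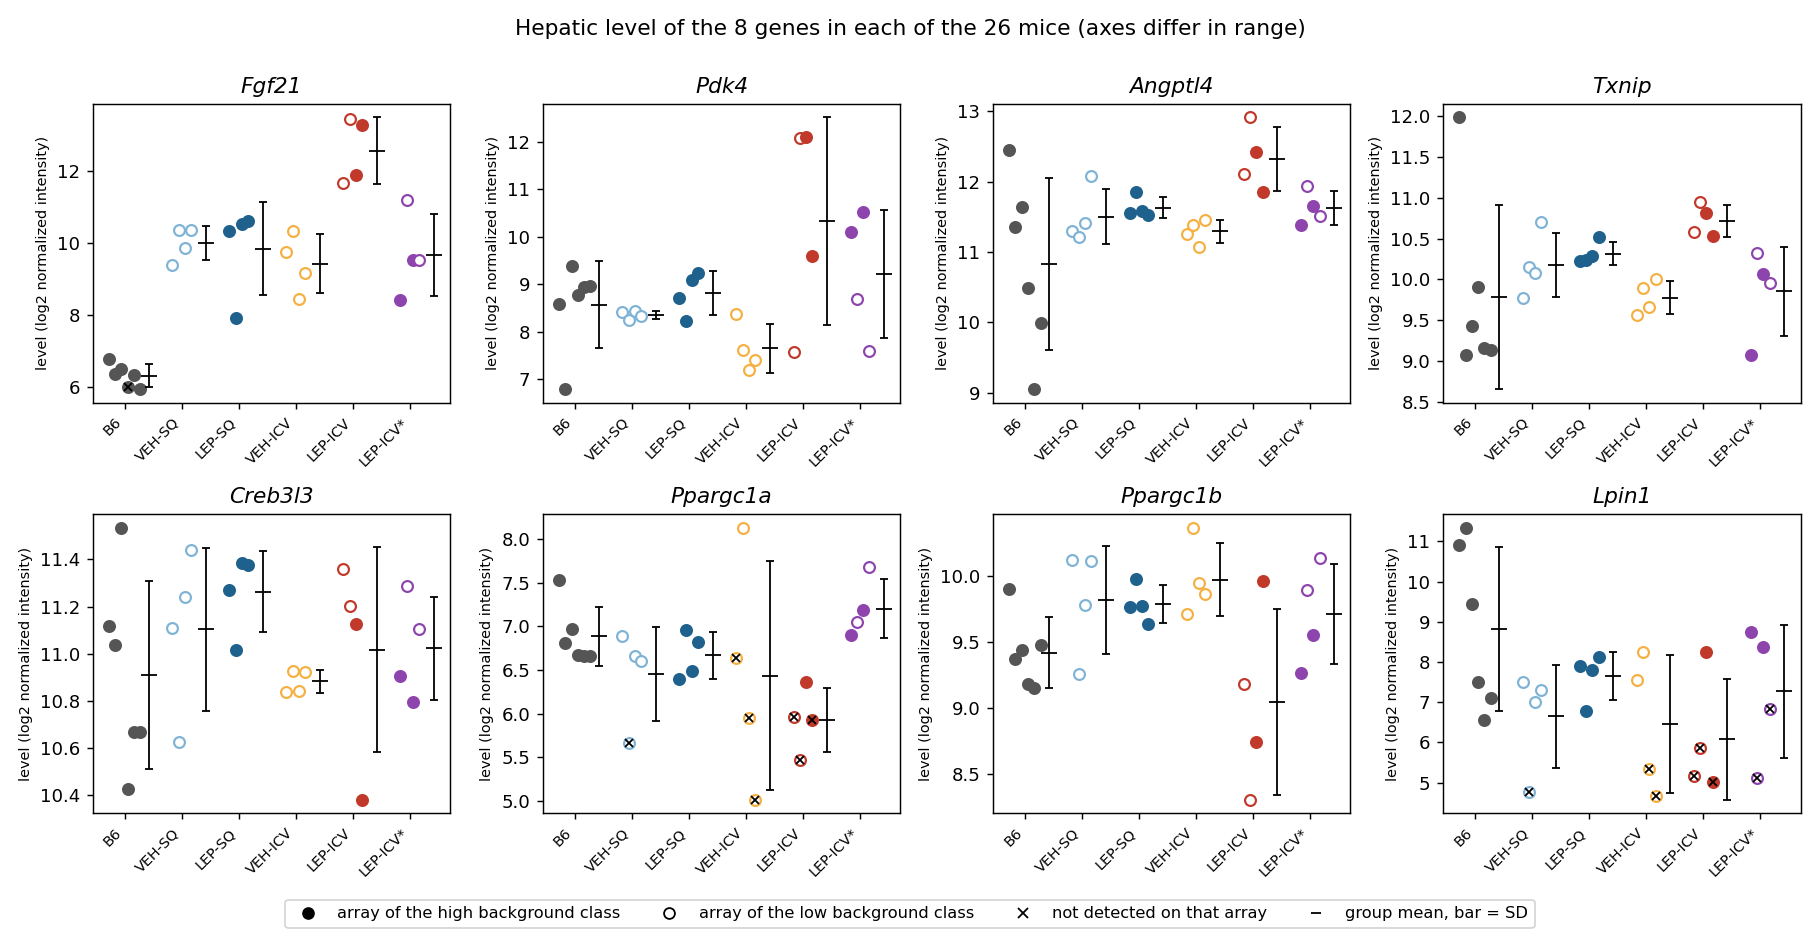
Level of each of the 8 genes (log2 normalized intensity, vertical axis, which differs between panels) in each of the 26 mice, by group. Filled circles are arrays of the high background class, open circles of the low class, crosses mark arrays without detection, and bars show the mean and SD of a group. The 4 LEP-ICV mice, at 11.66 to 13.46, stand above every other mouse for Fgf21.

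Differences were tested in 1 limma model of the 6 groups. A gene counts as called where its p, adjusted over all tested probes by the Benjamini-Hochberg method, was under 0.05. The share of all genes whose readings do not overlap between 2 groups was not counted. Where groups are said below not to overlap, this describes the readings only. Ventricular leptin gave the most calls among these genes within the ob/ob mice. In LEP-ICV against VEH-ICV, 2 of the 8 were higher and 1 was lower, where 13.5% and 11.5% of the 7953 named genes tested were. With array background as a block 1 of the 8 was called, against 12.6% of all genes. In LEP-SQ against VEH-SQ the count was 0 of 8, although 19.1% of all genes were higher and 21% lower there, a share that fell to 0.277% with the block. Against the LEP-ICV* mice, which were assigned the same infusion, 1 of 8 was higher in LEP-ICV, against a background of 4.89% higher and 3.13% lower (11.7% either way with the block). LEP-ICV* against VEH-ICV gave 0 calls among the 8 and 0% of all genes in either direction in the limma model, with 2050 genes at an unadjusted p under 0.05 and 1 gene called on the deposited log2 values. That count turned on 1 array: without the LEP-ICV* mouse that read lowest for Pdk4 (7.58) there were 1881 calls, 967 higher and 914 lower, among them Pdk4 (2.12, adjusted p = 0.0446), and with array weights 5830. The difference between the ventricular and the subcutaneous effect was called for 1 of 8 genes, higher, where 0.918% of genes were called higher and 0.792% lower (1.22% with the block).

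Set against lean mice, vehicle-treated ob/ob mice had 1 of the 8 genes higher and 1 lower, in a comparison that called 35.4% of all genes higher and 31.9% lower, or 7.85% with array background as a block. LEP-SQ against B6 had 1 higher and 0 lower, against 5.03% and 2.25%. LEP-ICV against B6 had 3 higher and 2 lower, against 24.4% and 18.4% (24.9% with the block, where 3 of the 8 were called, all higher). The comparisons with B6 share the same 6 B6 mice, and those with VEH-ICV the same 4 vehicle mice.

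**Figure D2:**
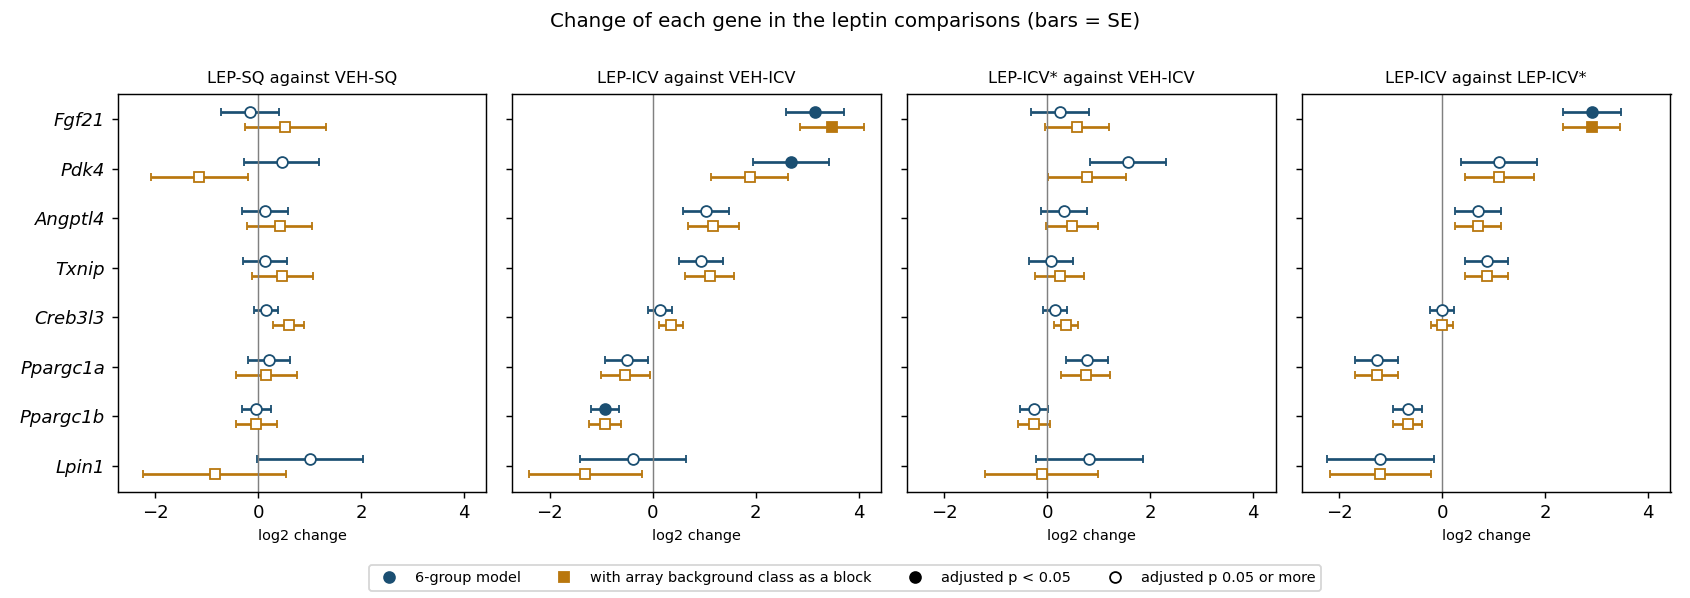
Log2 change (horizontal axis) of the 8 genes in the 4 leptin comparisons, with the standard error as bar, from the 6-group model (circles) and with array background class as a block (squares). Filled symbols have an adjusted p under 0.05, and Fgf21 with ventricular leptin is filled in both models, at 3.15 and 3.49.

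Fgf21 gave the widest range of the 8 genes. In B6 livers it was barely above background, at 5.94 to 6.78 with a median of 6.34, and was detected in 5 of 6 mice. VEH-SQ mice read 9.38, 10.36, 9.85 and 10.37, and VEH-ICV mice 9.76, 10.34, 8.43 and 9.17. All 8 vehicle-treated ob/ob mice were thus above all 6 B6 mice, a difference of 3.40 ± 0.43 (SE, as for every change below) with an adjusted p of 8.57e-07 in limma (2.72 ± 0.70 and 0.0189 with array background as a block). Because the B6 readings lay near background, the size of this change depends on how background is treated: it was 2.11 without background correction and 1.66 on the deposited log2 values (adjusted p = 0.000589). Under subcutaneous leptin the readings were 10.33, 7.90, 10.53 and 10.61, of which 2 were above the VEH-SQ range, 1 inside it and 1 below it. The change of -0.15 (95% interval -1.31 to 1.02, adjusted p = 0.844) was not past the threshold, and its interval takes in changes of more than 2-fold in either direction. LEP-SQ mice were 3.53 ± 0.52 above B6 (adjusted p = 0.000201, and 1.86 with 0.0112 on the deposited values), a comparison that lies within 1 background class.

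Fgf21 rose with ventricular leptin. LEP-ICV mice read 11.66, 13.46, 11.90 and 13.28, above every other mouse in the series, while LEP-ICV* mice read 8.42, 11.19, 9.53 and 9.53, of which 2 were inside the VEH-ICV range, 1 just under it and 1 above it. The rise over VEH-ICV was 3.15 ± 0.57 or 8.87-fold (adjusted p = 0.00048), and 3.49 ± 0.62 with the class as a block (0.000723). Within the low class alone, 2 LEP-ICV against 4 VEH-ICV mice, it was 3.14 (adjusted p = 0.0237). LEP-ICV mice were also 2.91 ± 0.57 or 7.51-fold above LEP-ICV* mice (adjusted p = 0.00178), by 3.61 within the high class (0.0112) and by 2.20 within the low class (0.225). With LEP-ICV* against VEH-ICV the change was 0.24 (95% interval -0.93 to 1.41, adjusted p = 0.779). The change in LEP-ICV over its vehicle exceeded that in LEP-SQ by 3.30 ± 0.80 (adjusted p = 0.0362, or 0.0794 with the block). Leaving out any of 8 mice ended that call, with adjusted p up to 0.103. LEP-ICV was chosen by weight loss and LEP-SQ was not, so this difference is not one of route alone. From B6 to LEP-ICV the distance was 6.27 ± 0.52 (adjusted p = 1.51e-08), and 4.34 on the deposited values, where the low B6 readings again set the size.

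By mean level ± SD the groups ran LEP-ICV 12.58 ± 0.93, VEH-SQ 9.99 ± 0.47, LEP-SQ 9.84 ± 1.30, LEP-ICV* 9.67 ± 1.14, VEH-ICV 9.43 ± 0.81 and B6 6.31 ± 0.32. The middle 4 overlapped each other mouse by mouse, while B6 lay below and LEP-ICV above all of them. Besides the hepatocyte sums given above, markers of macrophages and endothelial cells also differed between these groups. The summed intensity of 3 tested markers of lipid-laden macrophages (Gpnmb, Mmp12 and Trem2, of 4 listed) was 97.8 to 124.7 in B6, 490.7 to 1073 in VEH-SQ, 224.8 to 2116 in LEP-SQ, 106.4 to 413.3 in VEH-ICV, 166.8 to 800.5 in LEP-ICV* and 2374 to 9142 in LEP-ICV. Gpnmb was detected on at most 16 arrays, Mmp12 on 15 and Trem2 on 9, so these sums include readings below detection. For 6 tested markers of Kupffer cells and macrophages (of 9) the sum was 4455 to 8251 in B6, 2350 to 3743 in VEH-ICV, 2319 to 3850 in LEP-ICV* and 6538 to 8683 in LEP-ICV. In VEH-SQ and LEP-SQ, which lie in opposite background classes, this sum was 2118 to 3604 and 3916 to 4490. For 4 tested endothelial markers (of 5) it was 7948 to 9381 in VEH-ICV, 6269 to 9699 in LEP-ICV* and 10300 to 17230 in LEP-ICV. Their part in the Fgf21 result was not tested. Sums for the 3 of 8 exocrine pancreas markers that were tested (Cela1, Cela2a and Amy2a5) were 191.9 to 335.2 in VEH-ICV, 305.7 to 475.2 in LEP-ICV and 756.5 to 1197 in B6. Cela1 was detected on 25 arrays, but Cela2a on 7 and Amy2a5 on 8. The acinar markers Prss2, Cpa1 and Ctrb1, each with a probe, were detected on 0 arrays.

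Angptl4, the other secreted factor, gave a smaller step in the same groups. Its levels were 11.26, 11.39, 11.07 and 11.45 in VEH-ICV and 12.11, 12.92, 12.43 and 11.85 in LEP-ICV, so the groups did not overlap. The change of 1.03 ± 0.45 (adjusted p = 0.0918) missed the threshold over all arrays, as did 1.18 ± 0.50 with the block (0.141). Of 10 alternative settings only the low background class, 2 LEP-ICV against 4 VEH-ICV mice, called it (1.22 ± 0.30, adjusted p = 0.0435). LEP-ICV* mice (11.39, 11.94, 11.65 and 11.51) overlapped both groups, and neither of their comparisons was called (adjusted p = 0.613 against VEH-ICV and 0.421 against LEP-ICV). Subcutaneous leptin left Angptl4 at 11.55, 11.85, 11.59 and 11.53 against 11.30, 11.22, 11.42 and 12.08 in VEH-SQ, a difference of 0.13 (95% interval -0.80 to 1.05), which was not called. LEP-ICV was 2.82-fold above B6 (adjusted p = 0.00554, 0.0381 with the block, 0.135 within the high class), and the 6 B6 mice spread from 9.05 to 12.46. Adipose tissue is a major site of Angptl4, and the adipocyte markers with a probe, Adipoq, Plin1 and Retn, were detected on 0 arrays.

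Pdk4, the brake on pyruvate dehydrogenase, was uneven among the LEP-ICV mice. VEH-ICV mice read 8.38, 7.61, 7.19 and 7.41, and LEP-ICV mice 7.57, 12.07, 12.09 and 9.58. Of the LEP-ICV mice 3 were above every VEH-ICV mouse, 2 of them by a wide margin, and 1 was inside the vehicle range. The rise was 2.68 ± 0.74 or 6.42-fold (adjusted p = 0.0116). With array background as a block it was 1.89 ± 0.75 (adjusted p = 0.112), within the low class 2.18 (0.162), and without either of the 2 highest mice it was 2.10 (0.0562 and 0.0624). LEP-ICV* mice read 10.10, 8.68, 10.51 and 7.58, and the 2 higher ones were both of the high background class. That change of 1.57 ± 0.74 (adjusted p = 0.18) was not called, nor was LEP-ICV against LEP-ICV* at 1.11 (95% interval -0.40 to 2.63, adjusted p = 0.442). VEH-SQ mice were tight at 8.24 to 8.43, LEP-SQ mice lay at 8.21 to 9.23 (change 0.46, 95% interval -1.06 to 1.98, adjusted p = 0.626, turning to -1.14 with the block), and B6 mice at 6.79 to 9.38 with a median of 8.86. LEP-ICV was 1.76 ± 0.67 above B6 (adjusted p = 0.0367, 0.0102 with the block and 0.0203 within the high class). That call ended with median scaling in place of quantiles, without a detection filter and with the groups compared alone (adjusted p up to 0.101). Leaving out any of 4 of the 10 mice also ended it, with 1.18 and adjusted p = 0.177 or 0.149 without either of the 2 highest LEP-ICV mice.

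For Txnip, as for Angptl4, LEP-ICV and VEH-ICV did not overlap, a trait that was not counted over all genes and cannot be called particular to either. LEP-ICV mice read 10.58, 10.95, 10.81 and 10.53, each above each VEH-ICV mouse (9.56, 9.89, 9.66 and 9.999), a difference of 0.94 ± 0.42 with an adjusted p of 0.104, so the gene was not called. LEP-ICV* mice spread from 9.07 to 10.33, all below the 4 LEP-ICV mice (0.87 ± 0.42, adjusted p = 0.255), and LEP-SQ mice from 10.23 to 10.52, next to VEH-SQ at 9.77 to 10.70 (change 0.14, 95% interval -0.74 to 1.02). A single B6 mouse stood at 11.99, where the other 5 read 9.07 to 9.91. Without that mouse Txnip was 1.38 higher in LEP-ICV than in B6 (adjusted p = 0.000135), 0.98 higher in LEP-SQ (0.0143) and 0.64 higher in vehicle-treated ob/ob mice (0.00759), whereas with it those values were 0.94 (0.0525), 0.54 (0.468) and 0.20 (0.6).

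Creb3l3 was the most even of the 8 genes. Its 26 readings lay between 10.38 and 11.53, and group means between 10.88 ± 0.05 in VEH-ICV and 11.26 ± 0.17 in LEP-SQ. LEP-ICV mice read 11.36, 11.20, 11.13 and 10.38, and 3 of the 4 were above the 4 VEH-ICV mice, which lay at 10.84 to 10.93. No comparison called it: the change was 0.13 (95% interval -0.35 to 0.62) with ventricular leptin, 0.16 (-0.32 to 0.64) with subcutaneous leptin and 0.08 (-0.28 to 0.45) in vehicle-treated ob/ob against B6. In a list of its family, the proteases that release it and Insig2, 4 of 7 genes were tested and 0 were called with either route.

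Of the 2 PGC-1 genes, Ppargc1b was the one called in LEP-ICV against VEH-ICV. It read 9.72, 10.36, 9.95 and 9.86 in VEH-ICV and 9.18, 8.31, 8.74 and 9.96 in LEP-ICV, lower in 3 of the 4 mice and inside the vehicle range in the other. The gene fell by 0.93 ± 0.28 on the log2 scale, 1.90-fold lower (adjusted p = 0.0195). The size was the same with the block (-0.93, adjusted p = 0.0565) and -1.23 within the low class (0.0502). Leaving out the VEH-ICV mouse at 10.36 or either of the 2 lowest LEP-ICV mice moved adjusted p to between 0.0696 and 0.0899. Ppargc1b read 9.27 to 10.13 in LEP-ICV*, 9.64 to 9.98 in LEP-SQ and 9.26 to 10.12 in VEH-SQ, and the subcutaneous change of -0.03 had a 95% interval of -0.61 to 0.54. Vehicle-treated ob/ob mice were 0.48 ± 0.21 above B6, at the edge of the threshold (adjusted p = 0.0508, 0.0389 on the deposited values and 0.427 with the block).

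Ppargc1a sat near the detection limit, and its order among the groups rests on few detected readings. It was detected in 1 of 4 VEH-ICV mice, 1 of 4 LEP-ICV mice and 3 of 4 VEH-SQ mice, and in all mice of the other groups. LEP-ICV mice read 5.96, 5.47, 6.36 and 5.92, VEH-ICV mice 6.64, 8.13, 5.95 and 5.02, and LEP-ICV* mice 6.91, 7.04, 7.18 and 7.68. The 4 LEP-ICV mice were therefore below the 4 LEP-ICV* mice, by 1.27 ± 0.41, with an adjusted p of 0.0622 (0.053 with the block). LEP-ICV against VEH-ICV gave -0.50 (95% interval -1.36 to 0.35, adjusted p = 0.37). LEP-ICV fell by 0.95 ± 0.38 relative to B6 (adjusted p = 0.0435), a call that ended with the block (0.123), without a detection filter (0.0906), without background correction (-0.35, 0.0881), on the deposited values (-0.12, 0.253) and when any of 8 of the 10 mice was left out. With 3 of the 4 LEP-ICV readings not detected, the size of this change is not well measured.

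Lpin1 was read by a probe for the transcript NM_172950, while both probes for NM_015763 were below detection on every array. It was detected on 18 arrays, in all 6 B6 and 4 LEP-SQ mice, 3 of 4 VEH-SQ mice, 2 of 4 VEH-ICV, 1 of 4 LEP-ICV and 2 of 4 LEP-ICV* mice. All 3 detected readings in the ventricular leptin groups came from high-background arrays, at 8.25, 8.75 and 8.37, against 5.02 to 6.83 in the 5 others. No leptin comparison called it: the change was 1.01 ± 1.03 in LEP-SQ against VEH-SQ (95% interval -1.12 to 3.14, turning to -0.84 with the block) and -0.38 ± 1.03 in LEP-ICV against VEH-ICV (-2.51 to 1.75). In vehicle-treated ob/ob mice it fell by 2.26 ± 0.79 relative to B6 (adjusted p = 0.0141), but by 0.41 ± 1.23 with array background as a block (adjusted p = 0.876), and without 1 of the B6 mice by 1.76 (0.0531). LEP-ICV against B6 was -2.74 ± 0.94 (adjusted p = 0.0223), and -1.81 (0.202) with the block. Leaving out any of 5 of the 10 mice raised its adjusted p to between 0.0512 and 0.0803.

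**Figure D3:**
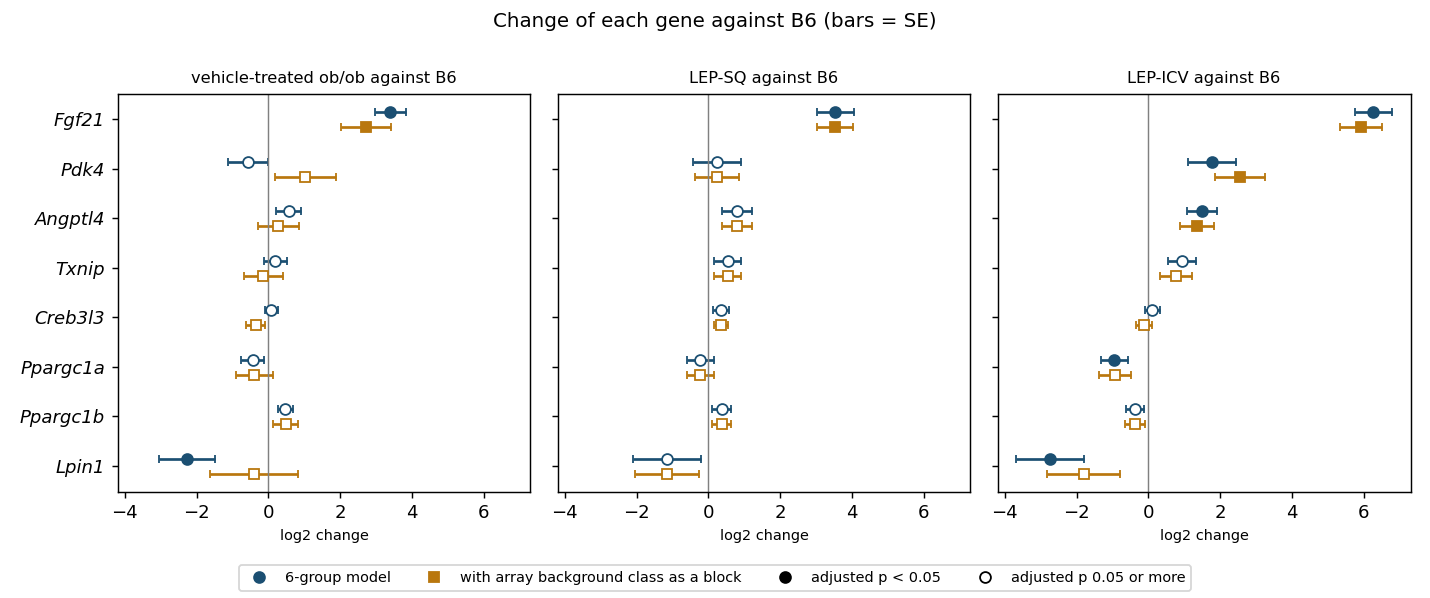
Log2 change (horizontal axis) of the 8 genes against B6 in vehicle-treated ob/ob, LEP-SQ and LEP-ICV mice, with the standard error as bar, from the 6-group model (circles) and with array background class as a block (squares). Filled symbols have an adjusted p under 0.05: Fgf21 is filled in all 3 panels, and for Lpin1 in vehicle-treated ob/ob mice the values of both models lie far apart (-2.26 and -0.41).

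The lean baseline itself held 2 series of mice. The titles number 3 B6 mice in a 55xx series and 3 in a 20xx series, and the sample labels do not say what the series stand for. Lpin1 read 10.91, 11.33 and 9.43 in the 55xx mice and 7.51, 6.56 and 7.11 in the 20xx mice, so the first 3 were above all 20 ob/ob mice and the last 3 inside the ob/ob range. Angptl4 read 12.46, 11.35 and 11.64 in the first series and 10.49, 9.05 and 9.99 in the second, again without overlap. In a limma model with B6 split, Angptl4 was 3.92-fold lower in the 20xx mice (-1.97 ± 0.33, adjusted p = 0.00414), the single call among the 8 genes, where 0.277% of all genes were higher and 0.302% lower. Without the highest 55xx or the lowest 20xx reading adjusted p was 0.0534 and 0.0555, and it was 0.0672 with the B6 mice fitted alone. Lpin1 differed by -3.50 ± 0.98, or 11.3-fold, with an adjusted p of 0.141, which was 0.0348 after median scaling in place of quantiles and 0.000818 on the deposited log2 values. Creb3l3 (11.12, 11.04 and 11.53 against 10.43, 10.67 and 10.67) also did not overlap, and its change of -0.64 ± 0.24 was not called (adjusted p = 0.388). Ppargc1a did not overlap either, and its change of -0.44 was not called (adjusted p = 0.938). The share of all genes without overlap between the series was not counted. Non-overlap of 3 against 3 mice therefore singles out none of these genes. For Fgf21 the series lay at 6.34 to 6.78 and 5.94 to 6.33, so all 6 were far below every ob/ob mouse, the lowest of which read 7.90. Each comparison of Lpin1 or Angptl4 with B6 above therefore depends on which B6 mice are taken.

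**Figure D4:**
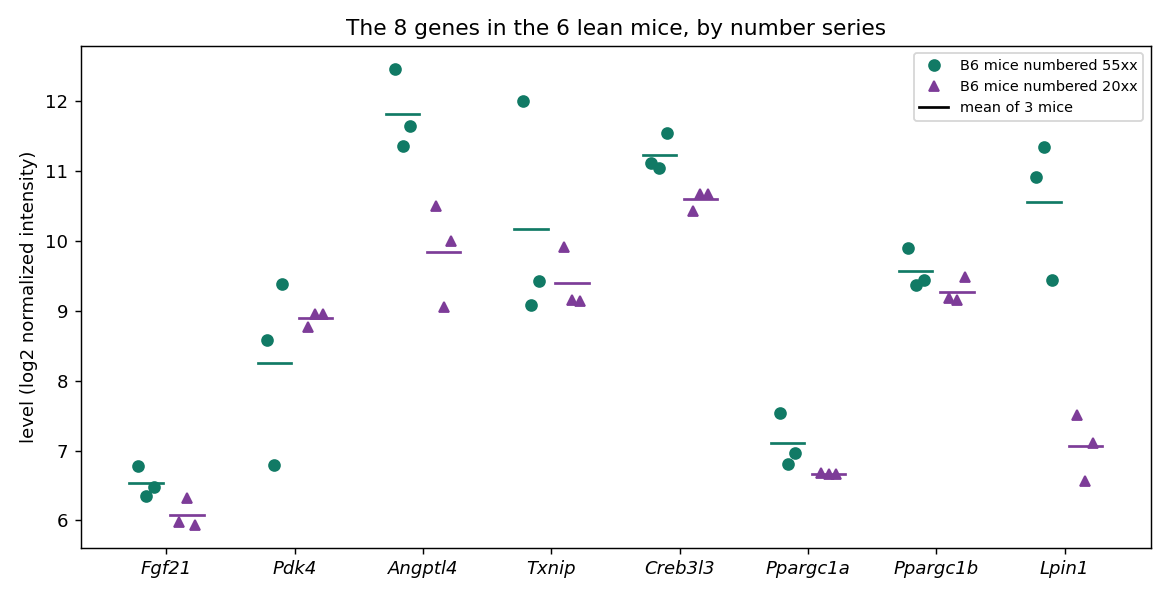
Level (log2 normalized intensity) of the 8 genes in the 6 B6 mice, circles for mice numbered 55xx and triangles for those numbered 20xx, with lines at the mean of 3 mice. Angptl4 and Lpin1 stand apart by series, at means of 11.82 and 9.84 and of 10.56 and 7.06.

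Around these genes, the pathways they belong to were counted in LEP-SQ against VEH-SQ and LEP-ICV against VEH-ICV. In LEP-ICV* against VEH-ICV 0 genes of any list were called. Among PPARα targets of fatty acid oxidation and ketogenesis, 8 of 15 tested genes (24 listed) rose and 0 fell in LEP-ICV, with a median change of 0.96 against 0.01 over all genes. In LEP-SQ 6 rose and 0 fell, with a median of 0.42 against -0.04. With array background as a block the counts were 5 and 0 in LEP-ICV and 0 and 0 in LEP-SQ, where no list kept a call. In LEP-ICV* against VEH-ICV 0 were called, with a median of 0.63 against -0.05 over all genes, and LEP-ICV against LEP-ICV* had 1 higher and a median of 0.29. The thioesterase gene Acot1 rose by 2.61 in LEP-ICV (adjusted p = 0.00439), the trifunctional protein subunit Hadhb by 1.73 (0.00128), the medium-chain dehydrogenase Acadm by 1.48 (0.0157, and 0.177 with the block) and the ω-hydroxylase Cyp4a14 by 1.11 (0.00436). Acot1 and Cyp4a14 have near-identical relatives, so their probes may read more than 1 gene.

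The amino acid starvation genes driven by ATF4 included several large rises with ventricular leptin. Of 12 tested genes (17 listed) 5 rose and 1 fell, where 13.5% and 11.5% of all genes did. Their median was 0.86 against 0.01 over all genes, or 0.57 with the genes undetected in VEH-ICV held at their lower bound. Asparagine synthetase, Asns, was detected in all 4 LEP-ICV and 0 of 4 VEH-ICV mice and was at least 5.82-fold higher (adjusted p = 3.16e-06). The stress factor gene Atf3 was at least 2.21-fold higher (1.21e-05) and the serine synthesis gene Psat1 at least 1.55-fold (0.00091), each with detection in 0 VEH-ICV mice, while Nupr1, a chromatin protein of the stress response, rose by 3.47 (6.03e-05). These bounds set the mean of the 4 LEP-ICV arrays against the lowest detectable signal of the vehicle arrays. With the block 5 rose and 0 fell. Of those named, 0 were called in LEP-SQ, where 1 gene of the list rose and 2 fell, against 19.1% and 21% of all genes.

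The list of gluconeogenesis and fasting transcription factors holds enzymes of that route, transcription factors and other fasting genes. Of 14 tested genes (19 listed) 2 rose and 3 fell in LEP-ICV, with a median of -0.39, and 2 rose and 5 fell in LEP-SQ. Over all genes 13.5% rose and 11.5% fell in LEP-ICV, and 19.1% and 21% in LEP-SQ, so the LEP-ICV counts, like those of the PGC-1 list below, lay near the background. Pck1, the committed enzyme of gluconeogenesis, fell by 2.21 in LEP-ICV (adjusted p = 0.0183) and changed by -2.57 in LEP-SQ (0.00615), both lost with the block (0.212 and 0.958). The fasting factor gene Klf15 fell by 1.32 (0.00496) and the aspartate aminotransferase Got1 by 1.29 (0.00802) in LEP-ICV. Igfbp1, a fasting-induced binding protein of insulin-like growth factors, was detected in 4 LEP-ICV and 0 VEH-ICV mice and at least 2.45-fold higher (0.00291). The other gene that rose was the gluconeogenic enzyme Fbp1, by 1.24 (0.0207, 0.228 with the block). The gluconeogenic enzyme G6pc changed by 0.05 in LEP-ICV (0.934). Among PGC-1 partners and mitochondrial targets, 1 of 12 (15 listed) rose and 2 fell in LEP-ICV, and 2 rose and 4 fell in LEP-SQ. In LEP-ICV the ATP synthase subunit Atp5b rose by 1.29 (0.00392), and cytochrome c, Cycs, fell by 1.58 (0.0132) and the deacetylase Sirt3 by 1.05 (0.0169). The last 2 were lost with the block, at 0.104 and 0.183.

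Genes listed around the metabolic switches were lower where they were called. Over all genes 11.5% were lower in LEP-ICV and 21% in LEP-SQ. Of the pyruvate dehydrogenase complex with its kinases and phosphatases, 0 of 7 (11 listed) rose and 2 fell in LEP-ICV: the kinase Pdk2 by 1.37 (adjusted p = 0.022, 0.0558 with the block) and the phosphatase Pdp2 by 1.04 (0.023, 0.127 with the block). In LEP-SQ 0 were called. Of thioredoxin system, α-arrestin and glucose-sensing genes 0 of 9 (11 listed) rose and 3 fell in LEP-ICV, with a median of -0.82, and 6 fell in LEP-SQ, with a median of -1.14. With the block 2 fell in LEP-ICV and 0 in LEP-SQ, with medians of -0.47 and -0.32. The median in LEP-ICV* against VEH-ICV was -0.76, with 0 calls. The α-arrestin gene Arrdc2 fell by 2.14 in LEP-ICV (0.00835, 0.0938 with the block), the mitochondrial thioredoxin reductase Txnrd2 by 1.40 (0.00281, 0.0284 with the block) and its substrate Txn2 by 0.82 (0.0187, 0.184 with the block), and Txnip itself read higher, as above, without a call.

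Lipoprotein lipase, Lpl, the enzyme that ANGPTL4 inhibits, rose by 2.17 in LEP-ICV (adjusted p = 4.89e-05) and by 1.32 in LEP-SQ (0.0046, 0.706 with the block). Lpl is made mostly outside the adult hepatocyte, in macrophages among others, and its rise in LEP-ICV went with the macrophage marker sums given for Fgf21, whose part was not tested. In its list 2 of 8 tested genes (11 listed) rose and 2 fell in LEP-ICV, against 13.5% and 11.5% of all genes. Apoa4, a fasting apolipoprotein and CREB-H target, rose by 1.59 (0.00897) although it fell by 1.16 in LEP-SQ (0.031), calls that were at 0.0539 and 0.462 with the block, Apoc3 fell by 0.62 (0.0035), and the lipase maturation factor Lmf1 by 0.98 (0.0369, 0.287 with the block). Next to lipin 1 in glycerolipid synthesis, the acyltransferase Gpam fell by 1.03 (0.024, detected in 1 of 4 LEP-ICV mice), the 1 call among 6 tested genes (7 listed) in LEP-ICV. In LEP-SQ 2 of these 6 rose and 3 fell, Gpam by 0.85 (0.0368), where 19.1% and 21% of all genes did. Of 3 tested FGF21 receptor genes (5 listed) 0 were called in LEP-ICV, and 1 was with the block, lower, while 1 rose in LEP-SQ.

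**Figure D5:**
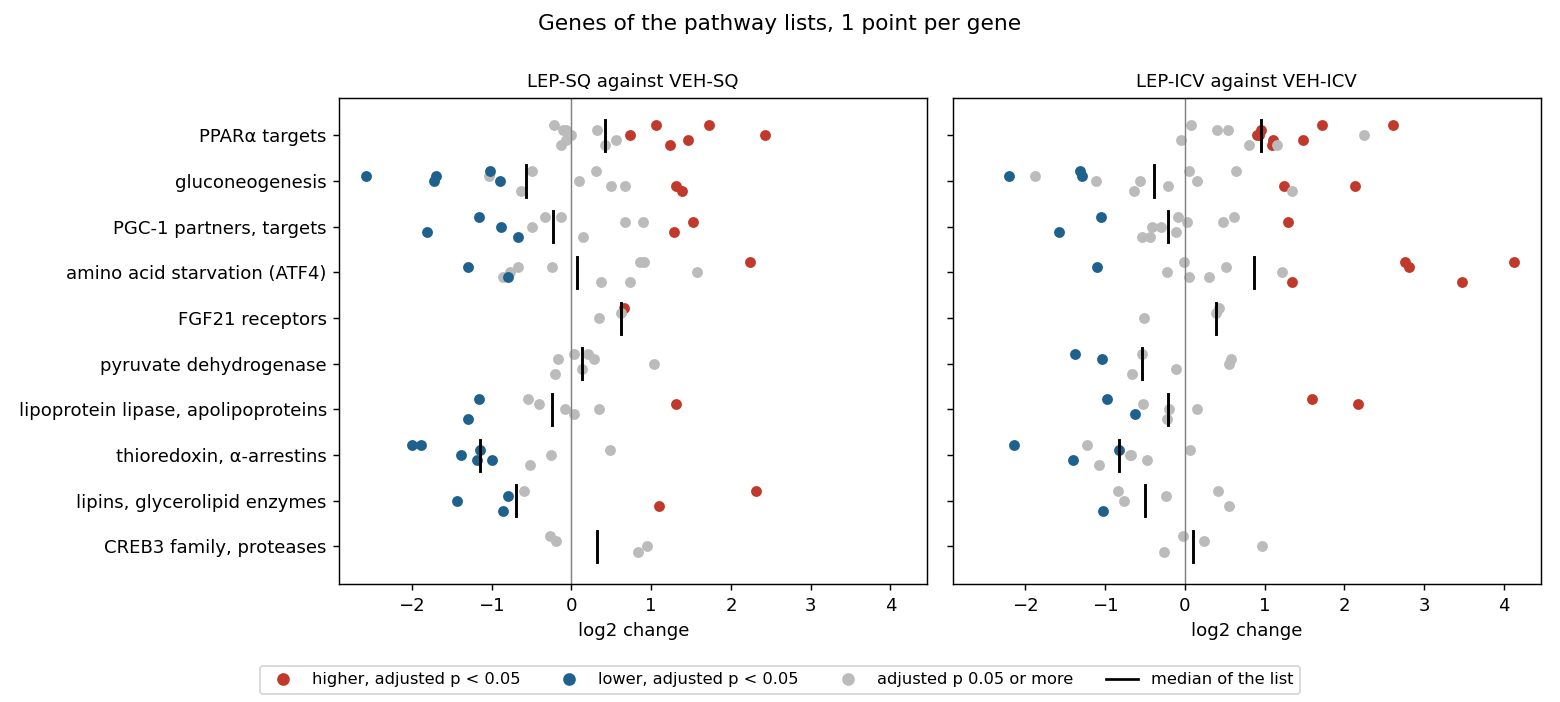
Log2 change (horizontal axis) of each tested gene of the 10 pathway lists with subcutaneous (left) and ventricular (right) leptin against the matching vehicle, red and blue for an adjusted p under 0.05, black lines for the median of a list. The 4 points farthest to the right with ventricular leptin among amino acid starvation genes are Asns at 4.12, Nupr1 at 3.47, Atf3 at 2.81 and Psat1 at 2.76, drawn at their fitted values rather than at the bounds.

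Over the 26 arrays each gene was also set beside the other named genes tested to find the 2 whose levels correlated most highly with its own. These correlations share the arrays, the groups and the 2 background classes, and are given as a description. Fgf21 was followed by Lgals3 (Pearson r = 0.941) and Clec7a (0.93), galectin-3 and Dectin-1, both best known from macrophages, and over the 20 ob/ob arrays the values were 0.907 and 0.813. Pdk4 was followed by Enc1 (0.916) and Fndc3b (0.893). For Angptl4 they were Gde1 (0.787) and Igfbp1 (0.768), of which Gde1 came to 0.389 without the B6 arrays. Txnip had the loosest company, Cmtm3 at 0.682 and Stk17b at 0.671. Creb3l3 ran with Pdhb (0.782), a subunit of pyruvate dehydrogenase, and Pla2g6 (0.768). Ppargc1b ran with Pdp2 (0.826), the pyruvate dehydrogenase phosphatase named above, and Nsun4 (0.792). For Ppargc1a they were Hmgn5 (0.815) and Aldh8a1 (0.792), and for Lpin1 Bet1l (0.87) and Asl (0.849), the last a urea cycle enzyme. Among the 8 themselves the closest pair was Angptl4 and Txnip (r = 0.722), the most opposed Pdk4 and Ppargc1b (-0.636), and Fgf21 and Pdk4, which both rose with ventricular leptin, came to 0.37.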

How the data were processed

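Each of 26 livers was measured on an Illumina MouseRef-8 array of its own. The authors deposited a table of non-normalized probe intensity with a detection score, and log2 values that they had normalized. The submitters' processing notes name BeadStudio 2.0 and lumi. Detection p was taken as 1 minus the deposited score. From the intensities, normexp background correction, an offset of 16, quantile normalization and the log2 transform were applied with neqc of limma 3.58.1 in R 4.3.3. Probes with detection p under 0.01 on at least 4 arrays were tested, and a gene was read from its tested probe of highest mean.

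One limma model held the 6 groups (7 where B6 was split by number series), with Benjamini-Hochberg adjustment over 11001 probes. The code was tested on simulated data. Alternatives were the deposited log2 values, other background corrections, scalings and detection filters, array background class as a block or stratum, only the groups compared, array weights and leaving out each mouse. Of each list, up to 4 genes called in LEP-ICV against VEH-ICV with the largest change were named, and for each of the 8 genes the 2 others of highest correlation. Fbp1 and G6pc were named in addition. The 8 genes and the lists were chosen with earlier results of these data known. Mice of 1 group were separate animals. The number of arrays limits the precision.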

Additional observations from a re-analysis of the deposited data

Results flagged for a closer look

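In 4 of 48 groups of 4 to 6 mice a single mouse stood apart from the others by Dixon's criterion, which chance alone meets in about 1 in 20 groups. For Fgf21, 1 LEP-SQ mouse read 7.90, where the other 3 read 10.33 to 10.61. For Pdk4, 1 B6 mouse of the 55xx series read 6.79 against 8.58 to 9.38. Another mouse of that series was the highest for both Txnip, at 11.99 against 9.07 to 9.91, and Ppargc1a, at 7.53 against 6.66 to 6.97.

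For Fgf21 the ventricular change exceeded the subcutaneous change by 3.30 on the log2 scale (limma, adjusted p = 0.0362). The call was lost with array background as a block (2.96, adjusted p = 0.0794), without a detection filter (0.079) and with the groups compared alone (0.065), and the subcutaneous change cannot be told apart from array background. Without the LEP-SQ mouse at 7.90 that difference was 2.65 (adjusted p = 0.0814).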

How the results depend on the processing

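No paired analysis was possible because each mouse number occurs in a single group. Fgf21 was called in LEP-ICV against VEH-ICV and in its 3 comparisons with B6 in the 6-group model and with array background as a block. The number of the 8 genes called moved as follows. In LEP-ICV against VEH-ICV it was 3, and 1 with array background as a block or with the groups compared alone (1 to 3 leaving out a mouse). In LEP-ICV* against VEH-ICV it was 0, and 4 with array weights (0 to 1). In LEP-ICV against LEP-ICV* it was 1, but 2 after median scaling, 0 with those groups alone, 3 with array weights and 0 within the low class (1 to 2). For the difference between routes it was 1, but 0 without a detection filter, with the block and with those groups alone, and 3 with array weights (0 to 2). In vehicle-treated ob/ob against B6 it was 2, then 1 with the block and 4 with array weights (1 to 5). In LEP-SQ against B6 it was 1, and 2 with array weights (1 to 2). In LEP-ICV against B6 it was 5, but 2 without a detection filter, 3 with the block and 3 within the high class (2 to 5). Between the B6 series it was 1, but 2 without background correction, after median scaling, on the deposited values and within the high class, and 4 with array weights (0 to 1). Array weights ran from 0.11 to 7.35 in the 6-group model, so a few arrays carried those fits, and from 0.1 to 7.28 in the model with B6 split, where their estimation did not converge. In LEP-SQ against VEH-SQ, Apoc3 turned from 0.03 to -0.79 after median scaling, and with the block Acadm turned from 1.46 to -0.061 and Cycs from -1.81 to 0.050. Without a call in either model, Pdk4 (0.46 to -1.14) and Lpin1 (1.01 to -0.84) also turned with the block there. The cause was not tested.

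Over all named genes, the block took the calls from 3191 to 22 in LEP-SQ against VEH-SQ, from 1993 to 999 in LEP-ICV against VEH-ICV and from 5355 to 624 in vehicle-treated ob/ob against B6. With the groups compared alone LEP-ICV against LEP-ICV* had 16 calls in place of 638. The share of calls that were higher was 69.1% in LEP-SQ against B6 and 54.8% on the deposited values, and 47.8% between the B6 series and 59% after median scaling. Levels near background, as for Ppargc1a and Lpin1, are the least precise. No gene had another tested probe to compare.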
